A study of Saccharomyces cerevisiae with 8 samples.

Results

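The regions described here are stretches of the yeast genome whose copy number at 30 min after release into S phase was high relative to 40 min in control cells, and not among the highest in Mcm6-SuOn cells. They were chosen from windows of 1000 bp placed every 500 bp on 11 chromosomes (II, V, VII to XI and XIII to XVI), over 30 kb from chromosome ends and with a ratio above 0 in all 6 later libraries. For each genotype the 30 min ratio was divided by the 40 min ratio and smoothed with a centred rolling median of 21 windows. A window was kept when this quotient was in the top 15% in Mcm6-ctrl and not in the top 20% in Mcm6-SuOn. Of 24133 windows in all, 15580 were eligible, 15360 of them had a full span for the rolling median, and 1031 were kept. They formed 81 zones, each a run of windows whose starts lay at most 1000 bp apart.

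Genomic DNA of diploid W303 cells was sequenced at 0, 15, 30 and 40 min after release from a cdc7-4 block, with 1 library for each of the 8 combinations of genotype and time. All cells, the controls included, were cdc7-4/cdc7-4 and carried ADH1-TIR::URA/+ and Mcm6-aid::HIS3/+. The genotypes differed in Mcm6-ctrl::KAN/+, the control, against Mcm6-SuOn::KAN/+. TIR is the receptor through which auxin degrades aid-tagged proteins, here driven by the ADH1 promoter, and auxin was given to both genotypes during a nocodazole arrest, before the shift to the restrictive temperature. Each genotype carries 1 strain ID in the labels, with 1 library at each time, so that no difference between the genotypes has a replicate check and none could be tested. Intervals are exact binomial at 95% and cover counting error only, and reads that carry no molecular identifier need not be separate molecules.

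The replicative helicase MCM, of which Mcm6 is a subunit, is loaded at origins before S phase and set to work by the Cdc7 kinase. A stretch of DNA that is copied early gains copies before the rest of the genome, so that its relative copy number rises first and falls back when later regions catch up. A fall between 30 and 40 min that follows a rise is therefore one mark of early copying, while a rise by 15 min is another. A fall without an earlier rise is not such a mark, since the scale is relative to the other windows. A value from a culture does not tell a few cells with full copying from many cells with partial copying. The 30 and 40 min values chose the windows and are given as description. The 0 min count cancels in the quotient and the 15 min ratio is not part of it. Both times entered only through the condition that every later ratio be above 0, which leaves out windows with low counts.

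The quotient at the margin showed how the windows were picked. The threshold was 1.134 in control cells and 0.767 in Mcm6-SuOn, neither of which is scaled for sequencing depth. The kept windows nearest to the thresholds stood at 1.1339 in control cells and 0.7668 in Mcm6-SuOn, and the nearest windows left out at 1.1337 and 0.7670. The median of the kept windows was 1.156 in control cells, against 1.048 over all eligible windows, and 0.737 in Mcm6-SuOn, against 0.721. Most of the kept windows were thus not low in Mcm6-SuOn. Their median lay at percentile 61.4 of the Mcm6-SuOn values, and 240 of 1031 (23.3%) were in the lower 50%. The counting error of the quotient over the span of a rolling median was 0.0133 in control cells and 0.00797 in Mcm6-SuOn (median SE), and 282 windows (27.4%) lay past both thresholds by more than the 95% counting error.

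**Figure D1:**
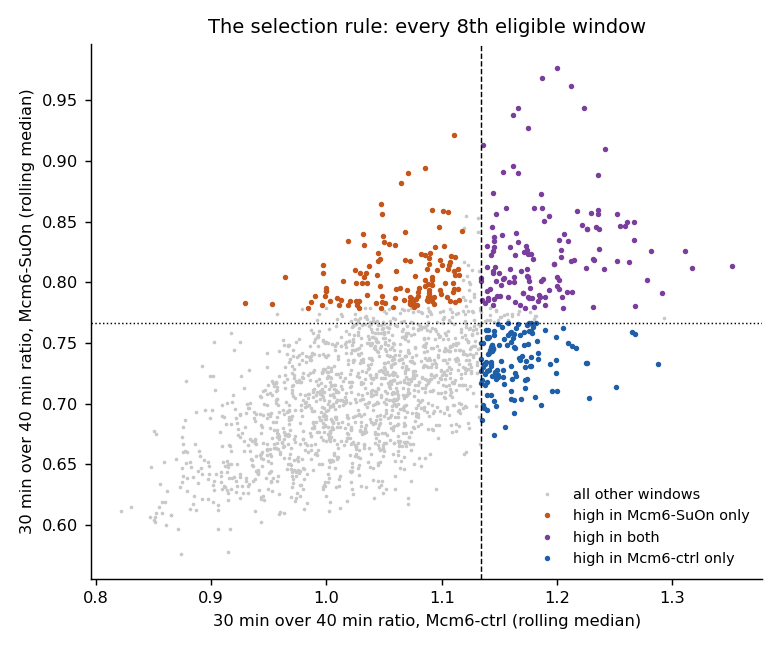
Quotient of the 30 min over the 40 min ratio (rolling median of 21 windows) in Mcm6-ctrl, on the x axis, and Mcm6-SuOn, on the y axis. Each point is a window, with every 8th eligible window drawn. The dashed line is the control threshold of 1.134 and the dotted line the Mcm6-SuOn threshold of 0.767. The windows high in Mcm6-ctrl only fill the corner between the lines next to the bulk of all windows, with no gap at either line.

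The fall at 40 min, more than a high level at 30 min, set these windows apart in control cells. As a share of the reads in all eligible windows, the kept windows of control cells held 7.0%, 7.13%, 7.14% and 6.39% in the order of the times from 0 to 40 min. In Mcm6-SuOn the shares were 6.88%, 6.99%, 6.85% and 6.68%. The lower control share at 40 min follows from the rule. The median relative copy number of the windows, the deposited ratio divided by its mean over eligible windows, was 1.0096 at 30 min and 0.910 at 40 min in control cells. Over all eligible windows these medians were 0.984 and 0.989. At 30 min 142 kept windows (13.8%) were among the top 15% of all eligible windows. At 40 min the median window lay at percentile 22.0. These values belong to the choice of the windows.

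At 15 min, a time that is not part of the quotient, the kept windows of control cells did not lie above 1.1 more often than all eligible windows by the deposited ratio. The median relative copy number was 1.008 (quartiles 0.954 and 1.065, lowest 0.797, highest 1.339), against 0.984 over all eligible windows. In control cells 156 of 1031 windows (15.1%) lay above 1.1, against 16.1% of all eligible windows. In Mcm6-SuOn the median was 1.012 (quartiles 0.974 and 1.052), against 0.997, and 98 windows (9.51%) lay above 1.1, against 6.5%. The control share is near the background, while a somewhat lower level was passed by 324 windows (31.4%), against 27.8%. In the windows outside every class named here the share above 1.1 was 9.37%, and with pooled 0 min counts, given further on, the kept windows exceed the background. These values do not settle whether the windows are early, so that they are named here by their quotient, as control-only windows. Windows low at 15 min were scarcer than over all eligible windows, but in control cells more common than in the other high classes. Below 1/1.1 lay 103 windows (9.99%) in control cells, against 20% of all eligible windows, and 22 (2.13%) in Mcm6-SuOn, against 6.72%. In windows high in both genotypes the shares were 0.735% in control cells and 2.30% in Mcm6-SuOn. In windows high in Mcm6-SuOn only they were 1.81% and 3.04%.

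The gain of these windows from 0 to 15 min was of like size in both genotypes. The summed reads were 729888 at 0 min and 755449 at 15 min in control cells, which in shares is a ratio to 0 min of 1.018 (1.015 to 1.021). In Mcm6-SuOn 844503 reads at 0 min and 639228 at 15 min gave a ratio of 1.016 (1.013 to 1.020). The intervals overlap. Read for read, the share in Mcm6-SuOn over that in control cells was 0.983 (0.980 to 0.986) at 0 min and 0.981 (0.978 to 0.984) at 15 min. It was 0.958 and 1.044 at the later times, 30 and 40 min. The read shares of the genotypes thus moved apart at the times that the rule used. The median difference per window at 15 min, Mcm6-SuOn minus control, was 0.0095 (quartiles -0.050 and 0.064), with 467 windows (45.3%) lower in Mcm6-SuOn. Over all eligible windows it was 0.0095 as well, with 45.8% lower. Mcm6-SuOn was over 1.1-fold lower in 108 windows (10.5%), against 14.8% of all eligible windows, and over 1.1-fold higher in 133 (12.9%), against 16.8%.

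With the 0 min counts of both genotypes pooled as a common denominator, a small difference appeared in the other direction. The median at 15 min was then 1.023 in control cells and 1.003 in Mcm6-SuOn, and the median difference per window was -0.0151, with 623 windows (60.4%) lower in Mcm6-SuOn against 49.2% of all eligible windows. Above 1.1 lay 178 windows (17.3%) in control cells, against 11.5%, and 94 (9.12%) in Mcm6-SuOn, against 12.1%. Below 1/1.1 lay 31 windows (3.01%) in control cells, against 9.45%, and 39 (3.78%) in Mcm6-SuOn, against 9.94%. A difference of over 1.1-fold with Mcm6-SuOn lower was found in 113 windows (10.96%), against 5.05%, and with Mcm6-SuOn higher in 35 (3.39%), against 5.3%. The same difference was already there at 0 min, at a median of -0.0157, and how far the one carries the other was not tested.

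Windows with a high quotient in both genotypes had higher values at 15 min in control cells. These 1089 windows, in the top 15% of both, had a median relative copy number at 15 min of 1.125 in control cells and 1.039 in Mcm6-SuOn. Their summed reads gave a ratio to 0 min of 1.146 (1.142 to 1.150) in control cells and 1.039 (1.036 to 1.043) in Mcm6-SuOn, and 634 of them (58.2%) lay above 1.1 in control cells and 196 (18.0%) in Mcm6-SuOn. When 0 min counts were pooled, this order turned, with medians of 1.079 in control cells and 1.093 in Mcm6-SuOn, and 40.6% and 46.8% of windows above 1.1. The 1051 windows high in Mcm6-SuOn only stood at 1.105 in control cells and 1.020 in Mcm6-SuOn. In both of these classes the 0 min libraries differed more than in the windows high in control cells alone. The median over the pooled 0 min counts was 0.948 in control cells and 1.052 in Mcm6-SuOn for the windows high in both, and 1.008 and 0.992 for the control-only windows. The part of the 0 min libraries in the contrast between classes was not tested. Libraries were not replicated, so that the classes are compared as descriptions.

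**Figure D2:**
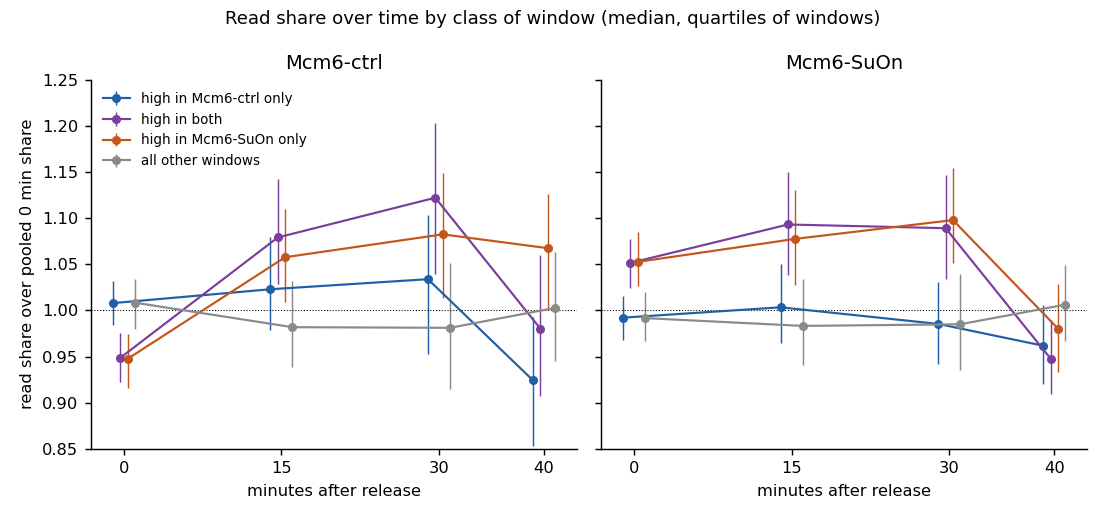
Median share of reads at each time over the pooled 0 min share (y axis), against minutes after release (x axis), for 4 classes of window in Mcm6-ctrl (left) and Mcm6-SuOn (right). Bars are the quartiles over windows, and points are set side by side for legibility. In the control the windows high in Mcm6-ctrl only stood near 1 at 0 min (1.008), at 1.023 and 1.034 at 15 and 30 min and at 0.924 at 40 min, while those high in both began at 0.948 and reached 1.122 at 30 min.

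Measured against their own surroundings, the control-only windows did stand above their flanks at 15 min, in both genotypes. Local contrast, a measure added after the data were seen, divides the mean of 5 windows by the mean of the 5 windows at 20 kb on either side. In the 983 windows with both flanks the median at 15 min was 1.035 in control cells (quartiles 0.991 and 1.093), against 0.994 over all eligible windows. In Mcm6-SuOn it was 1.031 (0.997 and 1.061), against 0.999. Above 1 lay 686 windows (69.8%) in control cells, against 46.1% of all eligible windows, and 712 (72.4%) in Mcm6-SuOn, against 49.0%. The rise over the flanks was thus no smaller in Mcm6-SuOn by this count, although the zones were picked for not standing out there. Over the pooled 0 min counts the medians were 1.043 and 1.019, with 77.4% and 68.5% of windows above 1, against 46.7% and 47.8%.

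Set beside this, the contrast of the windows high in both genotypes depended on the flanks and the denominator. With flanks at 20 kb its median at 15 min was 1.041 for control cells and 1.023 for Mcm6-SuOn. With flanks at 30 kb the control median was 1.057 (84.8% above 1) in windows high in both and 1.032 (66.6%) in control-only windows. Over all eligible windows it was 0.993 (46.2%) with these flanks. Over the pooled 0 min counts, at 20 kb, the Mcm6-SuOn median was 1.029 in windows high in both and 1.019 in control-only windows. By the deposited ratio at 20 kb, windows high in Mcm6-SuOn only had median contrasts of 1.002 in control cells and 0.992 in Mcm6-SuOn. Pooling turned this order, with 0.989 for control cells and 1.006 for Mcm6-SuOn. With the deposited ratio and flanks at 30 kb, these windows had 1.027 and 0.997, control first. At 30 min, a time that the rule used, control-only windows had a contrast of 1.075 in control cells and 1.013 in Mcm6-SuOn. At 40 min they had 0.967 and 1.002, for both times by the deposited ratio at 20 kb.

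Zone by zone, the contrast at 15 min was correlated between the genotypes. Of the 80 zones with a contrast, 57 were above 1 in control cells and 60 in Mcm6-SuOn. Above 1 in both were 48, and 11 were above 1 in neither. The zone values ran from 0.866 to 1.2 in control cells and from 0.945 to 1.12 in Mcm6-SuOn. Across the 54 zones of at least 5 windows, Pearson's r between the genotypes was 0.681, and across all 80 it was 0.517. The zones share libraries and their flanks can overlap, so that this is a description. No count or correlation over other stretches of like length was made. Whether the 48 zones exceed what unrelated genotypes would give was not tested. In relative copy number at 15 min, Mcm6-SuOn was the lower in 40 zones and the higher in 41.

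**Figure D3:**
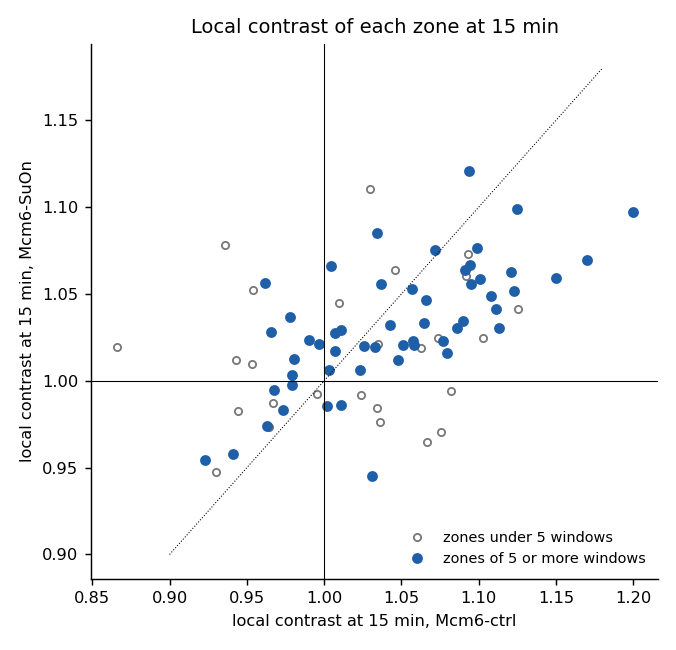
Local contrast at 15 min of each zone in Mcm6-ctrl (x axis) and Mcm6-SuOn (y axis), the zone's median window over flanks at 20 kb. Filled points are zones of 5 or more windows, open points are shorter zones, the solid lines mark 1 and the dotted line equal values. Most zones lie in the upper right, with 48 of 80 above 1 in both genotypes, a count without one over other stretches beside it.

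The median profile around the zones showed a low and narrow rise at 15 min in both genotypes. Over the 55 zones of at least 5 windows, the control median at 15 min was 1.023 at the zone centre, 0.971 at 20 kb to the left and 0.967 at 20 kb to the right. In Mcm6-SuOn it was 1.021 at the centre, 0.996 and 0.985. At 30 min control cells centre stood at 1.035 between flanks of 0.944 and 0.930, and the Mcm6-SuOn centre at 0.992 between 0.985 and 0.982. At 40 min control cells had a dip, with 0.924 at the centre and 0.958 and 0.964 at 20 kb, and Mcm6-SuOn stood at 0.974 between 0.973 and 0.961. In Mcm6-SuOn the centre was thus closer to its flanks at 30 min than at 15 min.

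**Figure D4:**
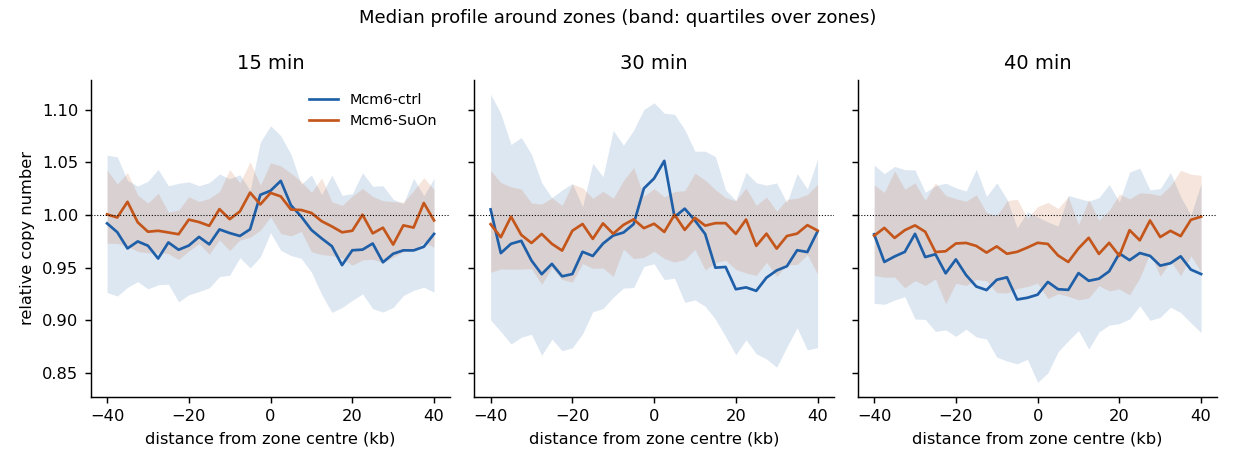
Median relative copy number (y axis) by distance from the zone centre in kb (x axis) at 15, 30 and 40 min, over zones of at least 5 windows, with the quartiles over zones as bands. At 15 min both lines peak near the centre (1.023 in Mcm6-ctrl, 1.021 in Mcm6-SuOn), at 30 min mainly Mcm6-ctrl does (1.035 against 0.992), and at 40 min the Mcm6-ctrl line dips to 0.924.

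Local maxima of the 15 min profile were found in zones of both genotypes. Active origins form such maxima, but those found here were not placed against mapped origins. With a rolling mean of 5 windows and a prominence of at least 0.05, 37 of 81 zones held a maximum in control cells and 43 in Mcm6-SuOn, and 31 held one in both. By number, 37 of 470 control maxima (7.87%) and 51 of 552 Mcm6-SuOn maxima (9.24%) lay in the kept windows. These make up 6.71% of all eligible windows, so that maxima were somewhat denser there, in Mcm6-SuOn more than in control cells. Over the pooled 0 min counts the order turned, with 8.70% in control cells and 7.5% in Mcm6-SuOn. The excess was not tested. On the authors' smoothed profile, tried after the data had been looked at, 23 of 137 control maxima (16.8%) and 19 of 125 Mcm6-SuOn maxima (15.2%) lay in the kept windows. At a prominence of 0.1 on the rolling mean, 29 of 242 control maxima (11.98%) and 24 of 280 Mcm6-SuOn maxima (8.57%) lay there, so that the share depended on how maxima were found.

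The zones were short and uneven in number between chromosomes. Their length had a median of 5.5 kb and ran from 1 to 25 kb, with 9 zones of a single window, 26 of under 5 windows and 19 of at least 10 kb. The last held 591 windows (57.3%). Chromosome X had 145 kept windows (10.98% of its eligible windows), chromosome II 145 (10.01%) and chromosome XIV 139 (10%). Chromosome IX had 10 (1.36%), in a single zone, and chromosome XI had 15 (1.26%), in 2 zones. The median control quotient of all eligible windows was lowest on chromosome XI, at 0.998, and the median Mcm6-SuOn quotient was highest on chromosome IX, at 0.786.

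Most kept windows lay in runs of their own, and the others in runs shared with further windows. Windows in the top 15% of control cells formed 99 runs, of which 44 consisted of kept windows alone, 27 held kept and other windows, and 28 held none. The mixed runs contained 395 of the kept windows (38.3%). At 15 min these had a median of 1.036 in control cells and 1.015 in Mcm6-SuOn, and the kept windows in runs of their own 0.991 and 1.009. Over the pooled 0 min counts the latter had 1.013 and 0.990, with the order of the genotypes turned. Of the 81 zones, 28 lay within 5 kb of a window high in both genotypes and 5 within 5 kb of a window high in Mcm6-SuOn only. No such count over other stretches was made.

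Of the 10 longest zones, 4 were above 1 in both genotypes at 15 min. The zone on chromosome VII from 767001 to 785500 had a relative copy number of 1.046, 1.073 and 0.963 in control cells at 15, 30 and 40 min and 1.015, 1.006 and 1.029 in Mcm6-SuOn. That at chromosome VII 652001 to 669500 had 1.035, 1.055 and 0.974 in control cells and 1.061, 1.069 and 1.056 in Mcm6-SuOn. Both stood above their flanks in both genotypes, with a contrast at 15 min of 1.113 and 1.03 in the first and 1.108 and 1.049 in the second, control first. The zone at chromosome II 476001 to 493000 had 1.010, 1.063 and 0.907 in control cells and 1.031, 1.012 and 0.988 in Mcm6-SuOn. The zone at chromosome XIV 158001 to 174500 had 1.023, 1.024 and 0.937 in control cells and 1.048, 1.024 and 0.980 in Mcm6-SuOn. In summed reads, these 4 zones had 15 min intervals above 1 in both genotypes.

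Another 3 of the longest were below the genome average in control cells at 15 min. The longest of all, 25 kb on chromosome XIV from 392501 to 417500, had 0.941, 0.909 and 0.813 in control cells and 0.980, 0.953 and 0.959 in Mcm6-SuOn at 15, 30 and 40 min. The zone at chromosome II 534501 to 551000 had 0.912, 0.856 and 0.756 in control cells and 0.999, 0.969 and 0.951 in Mcm6-SuOn. At chromosome II 315501 to 335500 the values were 0.943, 0.939 and 0.829 in control cells and 1.001, 0.987 and 0.960 in Mcm6-SuOn. These 3 zones were thus low at every later time in control cells and lowest at 40 min, and they met the rule although they never rose above the average. At 0 min their share of the reads was higher in control cells than in Mcm6-SuOn, at 1.033, 1.057 and 1.036 of the pooled share. Over the pooled counts their 15 min values were 0.977, 0.969 and 0.993 in control cells and 0.951, 0.938 and 0.964 in Mcm6-SuOn, so that in each the lower genotype changed with the denominator.

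The remaining 3 of the 10 longest were below 1 in control cells at 15 min. At chromosome X 149501 to 171000 the control had 0.959, 0.917 and 0.822 and Mcm6-SuOn 0.964, 0.932 and 0.908, with 15 min intervals in summed reads below 1 in both genotypes. At chromosome X 529501 to 549000 the values were 0.967, 0.979 and 0.871 in control cells and 1.003, 0.990 and 1.013 in Mcm6-SuOn, with a contrast at 15 min of 1.101 and 1.059. This zone had one of the lowest Mcm6-SuOn quotients, at 0.697. At chromosome XV 550001 to 572500 the control had 0.971, 1.024 and 0.936 and Mcm6-SuOn 0.9999, 0.982 and 0.998.

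**Figure D5:**
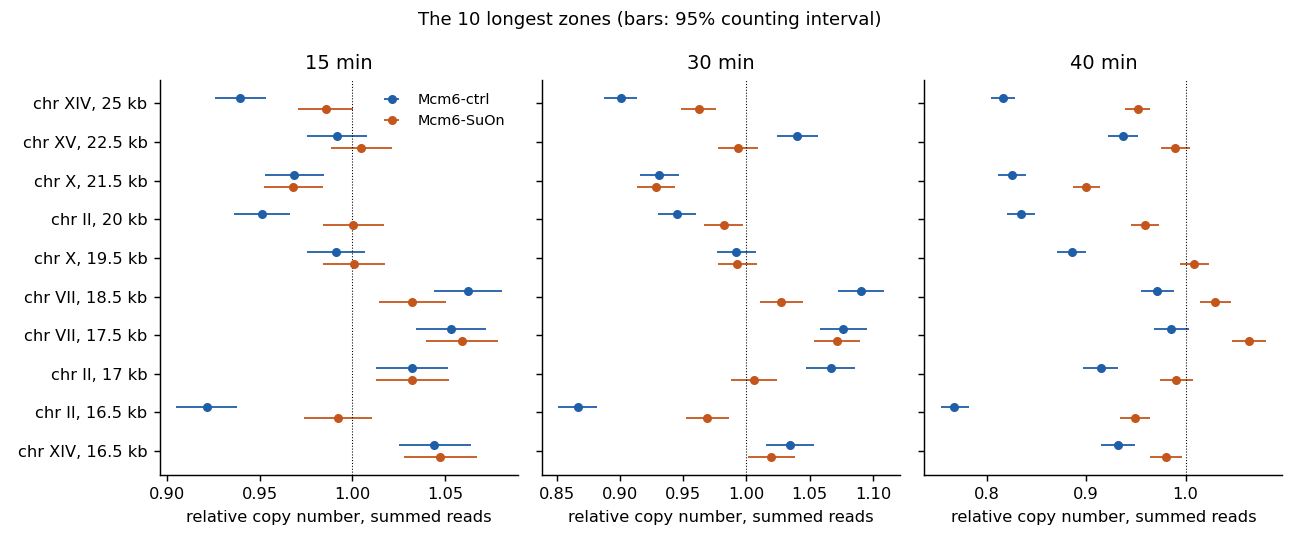
Relative copy number from summed reads (x axis) of the 10 longest zones (rows, by chromosome and length) at 15, 30 and 40 min in Mcm6-ctrl and Mcm6-SuOn, with 95% exact binomial intervals for counting error. At 15 min the intervals of the genotypes overlap except in the zones of 20 and 16.5 kb on chromosome II and of 25 kb on chromosome XIV, and at 40 min Mcm6-ctrl lies left of Mcm6-SuOn in all 10, which the choice of zones favours.

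Among zones of at least 5 windows, the 5 highest in control cells at 15 min were also above 1 in Mcm6-SuOn. The highest was chromosome XIV 123001 to 128500, with 1.157 in control cells and 1.121 in Mcm6-SuOn at 15 min, 1.152 and 1.021 at 30 min, and 0.960 and 0.929 at 40 min. Chromosome XVI 119501 to 127500 had 1.151 and 1.037 at 15 min, chromosome XIV 686001 to 699500 had 1.141 and 1.084, chromosome II 620001 to 626500 had 1.134 and 1.039, and chromosome XVI 156001 to 164500 had 1.132 and 1.041. Mcm6-SuOn was lower in each of the 5, which ranking on the control favours. Their local contrast at 15 min ran from 1.048 to 1.099 in control cells and from 1.012 to 1.077 in Mcm6-SuOn.

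The 5 lowest in control cells at 15 min showed the reverse order, as such a ranking also favours. The lowest was chromosome XV 396001 to 399500, with 0.872 in control cells and 1.037 in Mcm6-SuOn. The others were chromosome X 485501 to 501000 with 0.927 and 0.972, chromosome XV 391001 to 395500 with 0.930 and 0.978, and the zones of chromosomes II and XIV given above. The zone on chromosome X had a control quotient of 1.258, and its control value fell from 0.867 at 30 min to 0.730 at 40 min.

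On chromosomes V, VIII, IX, XI, XIII and XVI, which hold none of the 10 longest zones, the longest zone was 5.5 to 15.5 kb. At chromosome XI 149501 to 155000 the 15 min values were 1.089 and 1.067, and its contrast of 1.2 in control cells and 1.097 in Mcm6-SuOn made it the zone with the highest control contrast. Chromosome VIII 291501 to 300500 had 1.033 and 0.984 with a contrast of 1.150 and 1.059. Chromosome XIII 720001 to 731500 had 1.006 and 1.003 with a contrast of 0.973 and 0.983, and it had the highest control quotient of any zone, at 1.26. Chromosome XVI 502501 to 518000 had 0.969 and 1.005, chromosome V 218001 to 227500 had 0.971 and 0.966, and chromosome IX 297001 to 302500 had 1.031 and 0.968. Across the kept windows, the control quotient and the control relative copy number at 15 min had a Pearson r of -0.033, against 0.454 over all eligible windows. The Mcm6-SuOn quotient and the same control values had 0.212, against 0.689. The kept windows spanned a narrower range of both quotients than all eligible windows. It was 1.134 to 1.293 in control cells, against 0.816 to 1.352, and 0.667 to 0.767 in Mcm6-SuOn, against 0.576 to 0.978. How far this lowers the correlations in kept windows was not tested.

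The lowest Mcm6-SuOn quotients were those of chromosome XV 724001 to 729500 at 0.687, chromosome XV 223501 to 228000 at 0.695 and the zone of 19.5 kb on chromosome X at 0.697. At 15 min the first had 0.962 in control cells and 0.999 in Mcm6-SuOn, and the second 0.989 and 1.038. The highest were those of single windows at chromosome XIV 199501 to 200500, chromosome XV 665501 to 666500 and chromosome II 462501 to 463500, at 0.767, 0.766 and 0.766. These lie at the threshold, and their 15 min values in summed reads had intervals that spanned 1 in Mcm6-SuOn. In control cells the intervals were 1.029 to 1.210, 0.971 to 1.133 and 1.012 to 1.187, in the same order. Zones were not placed against genes or mapped origins, because no annotation of the build sacCer2 was used here.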

How the data were processed

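Genomic DNA was sequenced in 8 libraries, 2 genotypes at 4 times. For 0 min the authors deposited read counts in windows of 1000 bp every 500 bp, and for later times, per the file headers, a ratio (rcn), the same ratio scaled per chromosome and a smoothed ratio. From the values, the ratio is the later count over the 0 min count of the same genotype and is listed at 0 where a count was at most 600. Coordinates follow sacCer2, the only build listed per the submitters' processing notes. For aligner and smoother, the name is not given in the sources used here. Positions are those of the deposited windows.

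The unscaled ratio chose the windows and, divided by its mean over eligible windows, gave relative copy number. Later counts were recovered as ratio times 0 min count. The comparison classes were defined by the same rule, with the top 15% of both genotypes or of Mcm6-SuOn alone. Non-overlapping windows held between 9143564 and 15472455 reads per library in the eligible genome, and the median window held 1189 to 2013. With 1 library per group there was no test. The scripts were tested on simulated data. Zones named are the 10 longest, the 5 highest and 5 lowest at 15 min in the control among those of at least 5 windows, the 3 lowest and 3 highest in the Mcm6-SuOn quotient, and the longest on each chromosome. The members and lists were chosen with earlier results of these data known. Python 3.11.15, pandas 2.3.3 and scipy 1.17.1 were used.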

Additional observations from a re-analysis of the deposited data

Results flagged for a closer look

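Of the 29 zones named, 1 had genotypes on opposite sides of the genome average at 15 min, each beyond its counting interval. At chromosome IX 297001 to 302500, the only zone of that chromosome, the summed reads at 15 min gave 1.046 (1.012 to 1.080) in the control and 0.960 (0.929 to 0.992) in Mcm6-SuOn. The difference, Mcm6-SuOn minus control, was -0.0856. It was not tested, since each genotype has 1 library at this time. Over the pooled 0 min counts the medians were 1.032 and 0.987.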

How the results depend on the processing

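No paired analysis was possible because each genotype has 1 library per time, and for the same reason no library could be left out. Of 142 recomputed values, 73 stayed close to those reported, 67 moved and 2 changed sign, and the cause was not tested. The 2 are the median difference at 15 min, -0.0151 over the pooled 0 min counts and -0.125 where the 30 min ratio alone chose the windows. With that choice, which shared 52 windows (5.04%) with the one reported, the 15 min medians were 1.155 in the control and 1.025 in Mcm6-SuOn. Above 1.1 lay 72.4% and 11.4% of its windows, against 16.1% and 6.5% of all eligible windows. In this setting 19 and 20 zones held a maximum, and the contrasts were 1.054 and 1.003. Over the pooled counts the medians were 1.023 and 1.003 and the contrasts 1.043 and 1.019. A rolling median of 11 windows gave 131 zones and a control contrast of 1.030, and one of 41 windows 48 zones, 28 with a Mcm6-SuOn maximum, and contrasts of 1.028 and 1.026. The top 10% in the control left 574 windows, a Mcm6-SuOn median of 1.008, 24 zones with a control maximum and contrasts of 1.030 and 1.026. The top 20%, with 25% in Mcm6-SuOn, gave a control median of 1.001 and 11.1% above 1.1, against 16.1% of all eligible windows. Requiring the lower 50% in Mcm6-SuOn left 240 windows in 25 zones, a control median of 0.992 and a difference of 0.0241. In the control 10.4% of these windows lay above 1.1, against 16.1% of all eligible windows. This setting had 9 and 10 zones with a maximum and contrasts of 1.081 and 1.047. Scaling per chromosome gave medians of 1.0005 and 1.007, a difference of 0.00408 and contrasts of 1.029 and 1.025. In Mcm6-SuOn 7.497% of windows then lay above 1.1, against 6.12% of all eligible windows. The smoothed ratio gave a Mcm6-SuOn median of 1.008, 24 and 20 zones with a maximum and a control contrast of 1.031. On that ratio 8.93% and 0% lay above 1.1, against 14.7% and 0.873% of all eligible windows. A margin of 50 kb gave a control median of 1.014 and a difference of 0.00277. In the control 17.7% then lay above 1.1, against 15.2% of all eligible windows. The reported setting had the other order, 15.1% against 16.1%. A prominence of 0.1 left 23 zones with a Mcm6-SuOn maximum, and a lower level in place of 1.1 was passed by 31.4% and 25.9% of windows, against 27.8% and 21.3% of all eligible windows. The next settings were chosen after seeing the data. The 282 windows beyond counting error formed 30 zones, with medians of 0.992 and 1.007 and a difference of 0.0176. Of these windows 10.99% and 7.45% lay above 1.1, against 16.1% and 6.5% of all eligible windows. They had 12 zones with a maximum in each genotype and a control contrast of 1.031. Maxima of the smoothed profile lay in 23 and 19 zones. Flanks at 10 kb gave contrasts of 1.021 and 1.012, and flanks at 30 kb 1.026 in Mcm6-SuOn. Depth limits single windows, whose median count was 1189 to 2013.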

Other observations

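The quotient of 30 over 40 min was correlated with the 0 min libraries across windows, although the 0 min counts cancel in it. Over the 15360 eligible windows, the Mcm6-SuOn quotient had a Pearson r of 0.689 with the share of Mcm6-SuOn reads over the pooled 0 min share. The control quotient had 0.302 with that same Mcm6-SuOn share. Within the 1031 kept windows these were 0.451 and 0.0369. The control 0 min share mirrors that of Mcm6-SuOn, since both make up the pool. With the control share the signs thus turn, and over all eligible windows the control quotient had -0.302. Windows overlap, neighbouring rolling medians share most of their span and all windows share the libraries, so that these are descriptions. The part of library composition in the choice of the windows was not tested.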
